A study of Drosophila melanogaster with 2 samples.

Results

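The genes described here encode the subunits of the 5 complexes of oxidative phosphorylation in Drosophila melanogaster, and the question put to them was which ones carry binding of scratch (scrt), a neuronal DNA-binding protein with zinc fingers like those of Snail. They were chosen by symbol alone: protein-coding genes on the nuclear chromosomes whose names start with ND- (complex I), SdhA to SdhD (complex II), UQCR (complex III), COX and a digit (complex IV) or ATPsyn (complex V). The rule found 87 of 13945 protein-coding genes, on arms and chromosomes 2L to X of assembly dm6. Of these, 63 bear a plain subunit name and 24 end in L or in L and a digit, which marks a like-named duplicate; ND-MNLL was kept with the subunits because its last letters belong to the name of the subunit. The rule itself uses no measured value. Binding was measured by chromatin immunoprecipitation and sequencing in whole embryos of mixed sex, collected 4 to 24 h after laying, from a transgenic line that stably expresses scrt with GFP at its C terminus (scrt-GFP in the strain name, scrt-eGFP in the description). The 2 biological replicates, numbered 3 and 4, form 1 group without an untagged or mutant group beside it. A description in the labels calls the libraries input controls, but their antibody field names scrt, and they were taken as immunoprecipitations. The embryos were assayed whole, so a peak does not show in which cells scrt-GFP was bound, and whether the fusion stands in for the native protein is not stated in the sources used here.

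Oxidative phosphorylation takes place in the inner mitochondrial membrane. Complex I (NADH dehydrogenase) and complex II (succinate dehydrogenase) feed electrons into the chain, complex III (cytochrome bc1) and complex IV (cytochrome c oxidase) pass them on to oxygen, and complex V (ATP synthase) uses the resulting proton gradient to make ATP. A few subunits are encoded in mitochondrial DNA and the others in the nucleus, where their genes are transcribed in nearly every cell. The fly genome also holds duplicates of many of these genes, a number of which are known to be expressed mainly in testis. The present files hold no expression values, so the duplicates are called L paralogues here, after their names.

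Subunit genes of oxidative phosphorylation were bound about as often as other genes. A gene was called bound when the summit of a peak of the authors' optimal list, the 6407 peaks that passed their reproducibility threshold, lay within 1000 bp of any of its transcription start sites (TSSs). Of the 87 genes 19 were bound (21.8%, Wilson 95% interval 14.5 to 31.6), where 25.6% of all protein-coding genes were. Among the 63 subunits 17 were bound (27.0%, 17.6 to 39.0), and among the 24 L paralogues 2 were (8.33%, 2.32 to 25.8). The subunits thus sat near the background share and the paralogues below it, with intervals that overlap and that cover counting error only. No test of these shares was run, because there is 1 group and the genes are a named list.

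The genes are short, and short genes were bound less often. Their median length was 1178 bp for the subunits and 744 bp for the paralogues, where that of the other protein-coding genes was 2177 bp. Other genes of the same length decile and number of TSSs had a mean bound share of 21.6% when weighted like the subunits, which corresponds to 13.6 genes beside the 17 found. For the paralogues the like share was 15.4%, or 3.7 genes beside the 2 found. Between 773 and 1755 bp, the middle range of lengths of the 87 genes, 10 of 43 of them were bound (23.3%) and 652 of 4054 other genes (16.1%).

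**Figure D1:**
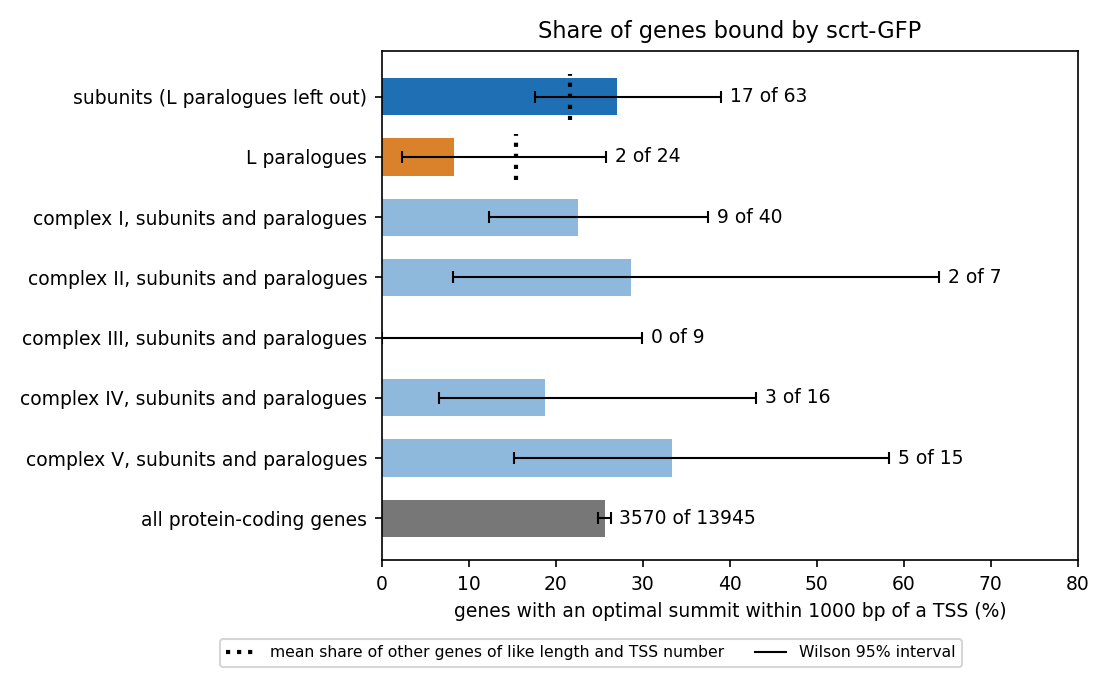
Share of genes (%) with an optimal scrt-GFP summit within 1000 bp of a TSS, for subunits, L paralogues, each complex and all protein-coding genes; bars are shares, lines are Wilson 95% intervals, and dotted ticks mark the mean share of other genes of like length and TSS number. The subunits (17 of 63) lie near the 25.6% of all genes and the L paralogues (2 of 24) below it, with wide intervals for the single complexes.

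Complex I had 9 of its 40 genes bound (22.5%), all of them among its 34 subunits. The peak of highest signal was that of ND-B8, an accessory subunit gene, with its summit 417 bp upstream of the TSS. Its peak at chr2L:4453984-4454380 had a signal of 1069, the authors' own enrichment value per peak, and ranked 598 of 6407; a second peak of 487 lay 195 bp upstream. The accessory subunit gene ND-ASHI had nearly the same signal, 1058 at chrX:6679218-6679526, rank 605. These 2 stood well above the rest, and no other bound gene of the 87 exceeded 535. That value belonged to the accessory subunit gene ND-15 (chr2L:114524-114733), and ND-51, which encodes the core subunit that takes electrons from NADH, followed with 490 at chr2L:6062820-6062984. The summits of 6 of the 7 bound genes of highest signal are printed here, 50 bp on each side and in the direction of the gene. Those of ND-B8, ND-ASHI and COX5B lay nearer to the TSS of another gene. The peak of ND-ASHI overlapped no peak of replicate 3. Capitals mark matches on either strand to any of the motifs searched, which are spelled out further on, and the sequence is that of the Release 6 (dm6) genome. The windows are chr2L:4454159-4454259 for ND-B8, chr2L:114574-114674 for ND-15 and chr2L:6557507-6557607 for COX5B on the plus strand, and chrX:6679350-6679450 for ND-ASHI, chr2L:6062821-6062921 for ND-51, chr3L:5011262-5011362 for ATPsynCF6L and chr2L:2198221-2198321 for COX7AL2 on the minus strand. COX7AL2 was added to the set after its values were seen, for the E-box at its summit.
ND-B8: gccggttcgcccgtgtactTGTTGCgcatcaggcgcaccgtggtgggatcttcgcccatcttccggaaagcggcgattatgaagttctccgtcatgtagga
ND-ASHI: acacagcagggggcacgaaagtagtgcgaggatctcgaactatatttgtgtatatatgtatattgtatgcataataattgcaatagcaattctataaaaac
ND-15: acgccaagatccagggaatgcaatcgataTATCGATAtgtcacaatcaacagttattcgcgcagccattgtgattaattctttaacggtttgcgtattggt
ND-51: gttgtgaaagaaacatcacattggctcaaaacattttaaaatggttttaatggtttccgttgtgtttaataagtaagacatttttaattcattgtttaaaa
COX5B: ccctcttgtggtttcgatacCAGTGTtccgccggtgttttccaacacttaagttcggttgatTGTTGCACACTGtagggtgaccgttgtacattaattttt
ATPsynCF6L: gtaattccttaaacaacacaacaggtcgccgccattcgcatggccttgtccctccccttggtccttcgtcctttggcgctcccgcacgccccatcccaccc
COX7AL2: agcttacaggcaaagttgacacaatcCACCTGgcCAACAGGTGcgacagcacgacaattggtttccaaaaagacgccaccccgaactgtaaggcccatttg

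The other bound genes of complex I had moderate or low signals. They were ND-MWFE (464), ND-B15 (368), ND-24 (351), ND-MNLL (242) and ND-B22 (240), of which ND-24 encodes a core iron-sulphur subunit and the others accessory subunits. Of the 7 core subunit genes in the nucleus, ND-51 and ND-24 were bound and ND-75, ND-49, ND-30, ND-23 and ND-20 were not. Of the 27 accessory subunit genes 7 were bound. The unbound accessory genes were ND-ACP, ND-AGGG, ND-B12, ND-B14, ND-B14.5A, ND-B14.5B, ND-B14.7, ND-B16.6, ND-B17, ND-B17.2, ND-B18, ND-13A, ND-13B, ND-18, ND-19, ND-39, ND-42, ND-MLRQ, ND-PDSW and ND-SGDH. Binding of ND-15 rests on an upstream TSS. Its annotated span is 41305 bp, from 114726 to 156030 on the plus strand of 2L, and the summit lay 102 bp upstream of the first TSS, whereas the canonical transcript starts at 155089.

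Complex II had 2 of 4 subunit genes bound, both with weak peaks. SdhC, which encodes a membrane anchor subunit, had a signal of 262 at chr3R:11209756-11210185, with a second peak of 216. SdhB, the iron-sulphur subunit gene, had 204 at a summit 24 bp upstream of its TSS. The genes for the catalytic flavoprotein SdhA and for the second anchor SdhD were unbound. Without replicate 4, 1 gene of complex II was bound.

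Complex III had no bound gene, 0 of 6 subunits and 0 of 3 L paralogues, a share for which the upper Wilson limit is 29.9%. The unbound subunit genes were UQCR-C1 and UQCR-C2, which encode the core proteins, UQCR-Q, UQCR-14, UQCR-11 and UQCR-6.4. Several of its genes lay near a threshold. UQCR-6.4L missed the window by the smallest possible step, with an optimal summit of signal 328 at 1001 bp, and UQCR-Q had one of 207 at 1008 bp. UQCR-C1, UQCR-14 and UQCR-Q had peaks 23, 9 and 9 bp from a TSS in the pooled list, at ranks 8392, 8657 and 11733, beyond the 6407 that passed. With the leading peaks of either replicate alone, 2 genes of complex III were bound.

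Complex IV had 2 of 8 subunit genes and 1 of 8 L paralogues bound. COX5B had a signal of 467 at chr2L:6557453-6557593, and COX7B one of 409 at chr3L:17425125-17425554; both encode nuclear subunits that surround the catalytic core. COX4, COX5A, COX6B, COX7A, COX7C and COX8 were unbound. The bound paralogue was COX7AL2, with peaks of 341, 313 and 278 within reach of its 3 TSSs, while COX7A itself had none.

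Complex V had 5 of 15 genes bound (33.3%, Wilson 95% interval 15.2 to 58.3), 4 of 11 subunits and 1 of 4 L paralogues. ATPsynE, for a small membrane subunit, had a signal of 383 at chr3R:14327829-14327940, and ATPsynC, for the subunit of the rotating c-ring, 240 at chr3R:31219345-31219774. ATPsyngamma, for the central stalk, had 228 and ATPsynD, for a subunit of the peripheral stalk, 198. The catalytic ATPsynbeta was unbound, as were ATPsynB, ATPsyndelta, ATPsynF, ATPsynG, ATPsynO and ATPsynCF6. The paralogue ATPsynCF6L had a peak of 441 at chr3L:5011187-5011449. Its summit lay 821 bp downstream of the TSS, past the end of the gene and in an intron of Con. ATPsynCF6 itself narrowly missed the window, with an optimal summit of signal 480 at 1007 bp. Without replicate 4, 3 genes of complex V were bound.

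**Figure D2:**
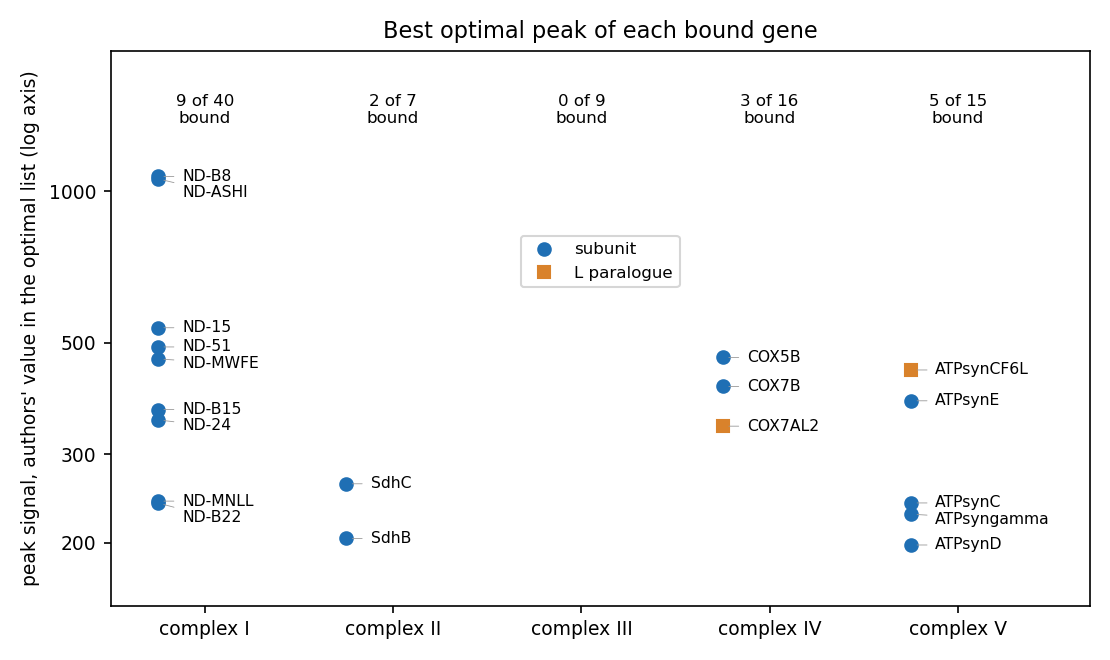
Signal of the best optimal peak of each bound gene (authors' value, log axis) by complex, with subunits as circles and L paralogues as squares. ND-B8 and ND-ASHI stand apart at 1069 and 1058, the other 17 lie between 198 and 535, and complex III has no bound gene.

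The peaks of these genes were seldom among the strongest of the experiment. The median signal of the best peak was 368 over the 19 bound genes and 423 over all 3570 bound genes. Among the 1000 leading peaks lay 2 of the 19 (10.5%), where 25.8% of all bound genes had such a peak. The 3203 peaks of highest signal held the same share of both, 63.2%. At the lower end of the list stood ATPsynD at rank 6222 and SdhB at 6004, just inside the threshold, and ATPsynCF6 at 6569 and ND-SGDH at 6943 in the pooled list, just outside. Within the window the outermost summits were those of ATPsynCF6L and ATPsynE, at 821 and 820 bp.

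The summits lay close to the TSS and mostly upstream, and most were shared with another gene. Of the 19, 16 were within 500 bp of the TSS (84.2%), close to the 80.5% of all bound genes. Upstream of the gene's nearest TSS lay 17 (89.5%), against 74.5% of all bound genes, and the median distance was 137 bp, against 174 bp. Among the 17, the summits of ND-24, ND-B22 and ATPsynC lay within the gene itself, upstream only of an inner TSS. For 13 of the 19 (68.4%) the same summit was also within 1000 bp of the TSS of another protein-coding gene, where this held for 53.0% of all bound genes. The gene's own TSS was the nearest for 10 of the 19 (52.6%), against 73.7% of all bound genes. For the other 9 a neighbour was nearer. The peak of ND-B8 lay 244 bp from Secp43, in its coding sequence, and the peak of ND-ASHI lay 240 bp from Fum1, in an intron. Fum1 encodes fumarase of the tricarboxylic acid cycle. COX5B shared its peak with IFT52 (55 bp), ND-MWFE with TppII (47 bp), COX7B with the exocyst gene Sec3 (123 bp), ND-MNLL with p115 (108 bp) and CG45089 (125 bp), and ATPsynE with the recombination gene spn-B (163 bp). ATPsyngamma shared its peak with yata (188 bp), and ATPsynD with cdi (28 bp) and the mitochondrial ribosomal protein gene mRpL55 (663 bp). ND-51, ND-B15, ND-24 and SdhC were nearer than their neighbours CG13994, CG10151, corolla and Tctp. Peaks of ND-15, ND-B22, SdhB, ATPsynC, COX7AL2 and ATPsynCF6L had no other protein-coding TSS in the window.

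Bound genes were more often those with a close neighbour. Of the 51 of the 87 genes with another protein-coding TSS within 1000 bp of one of theirs, 15 were bound (29.4%), against 34.9% of all such genes. Of the 36 without one, 4 were bound (11.1%), against 18.6% of all such genes. A neighbour was present at 44 of the 63 subunits and at 7 of the 24 paralogues. This split was chosen after seeing the data, and the part of shared promoters in the bound shares was not tested.

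**Figure D3:**
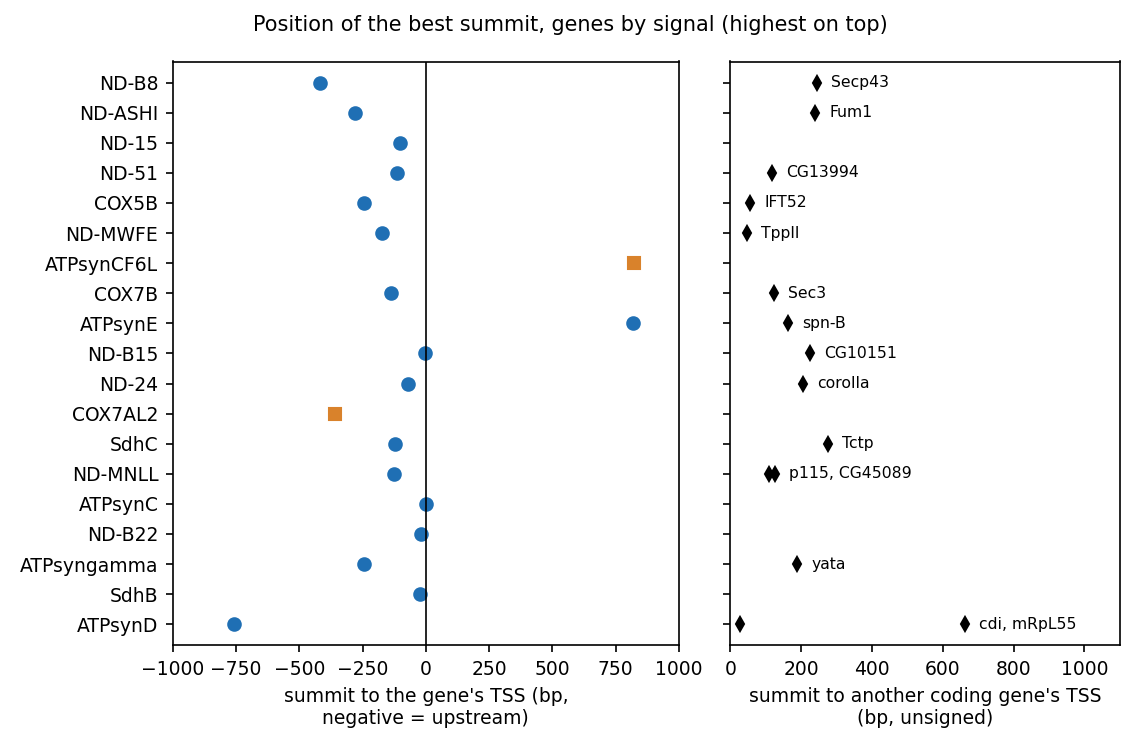
Left, distance in bp from the best summit to the nearest TSS of each bound gene (negative is upstream; circles subunits, squares L paralogues); right, unsigned distance in bp from the same summit to the TSS of other protein-coding genes within 1000 bp, with their names. All but ATPsynE and ATPsynCF6L lie upstream of that TSS, and 13 of 19 summits have another gene beside them.

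The replicates differed at several of these peaks. Signals have their own scale in each list, so ranks by signal were compared. ND-B8 ranked 429 in replicate 3 (signal 693) and 1126 in replicate 4 (358), ND-15 ranked 1755 (266) and 1956 (247), and COX5B ranked 2105 (230) and 2054 (239). ND-15 and COX5B thus held nearly the same place in both lists. ND-ASHI did not: its peak ranked 393 in replicate 4, with a signal of 678, and overlapped none of the 30000 peaks of replicate 3. The leading peak of replicate 3 at ND-ASHI, rank 5576 with a signal of 108, had its summit 1098 bp away, 42 bp from another TSS of the gene.

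In the same way the peaks of ND-51 and ATPsynC, at ranks 1833 and 3630 in replicate 4, overlapped no peak of replicate 3. ND-MWFE ranked 23131 in replicate 3 and 1848 in replicate 4, and ATPsynD 16902 and 4157. In the other direction COX7AL2 ranked 1905 in replicate 3 and 7674 in replicate 4, and ATPsyngamma 3746 and 8351. Each of these 6 peaks, like that of ND-ASHI, was among the 6407 leading peaks of 1 replicate only, and so were those of ND-B22 (7147 in replicate 3, 3323 in replicate 4) and SdhB (9209 and 5009). The remaining peaks kept closer places. ND-B15 ranked 2495 in replicate 3 and 3229 in replicate 4, ND-24 2948 and 3095, ND-MNLL 4760 and 5538, SdhC 3993 and 5071, COX7B 2048 and 2963, ATPsynE 2758 and 2578, and ATPsynCF6L 1774 and 3031.

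For 10 of the 19 bound genes (52.6%) the best peak overlapped one of the 6407 leading peaks of both replicates, where this held for 81.1% of all bound genes. All bound genes, weighted to the same places in the ranking in 5 classes, had a share of 75.8%, or 14.4 of 19. No overlapping peak in replicate 3 was found for 3 of 19 (15.8%), against 3.7% of all bound genes, and in replicate 4 for 0 of 19, against 0.588%. Where both had a peak, 6 of 16 ranked better in replicate 4 (37.5%, against 49.0% of all bound genes) and 10 in replicate 3. This tally leaves out the 3 genes without a peak in replicate 3. Of the 9 best peaks that led in 1 replicate only, 7 led in replicate 4 and 2 in replicate 3. All 3570 bound genes leaned the same way, with 414 such peaks in replicate 4 and 237 in replicate 3. The optimal list was itself made from these 2 replicates, and read depth is unknown. With the leading peaks of replicate 4 alone 24 of the 87 genes were bound (27.6%), against 27.4% of all genes. These included 18 of the 19. With the leading peaks of replicate 3 alone 16 were bound (18.4%), against 24.7% of all genes, with 13 of the 19.

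**Figure D4:**
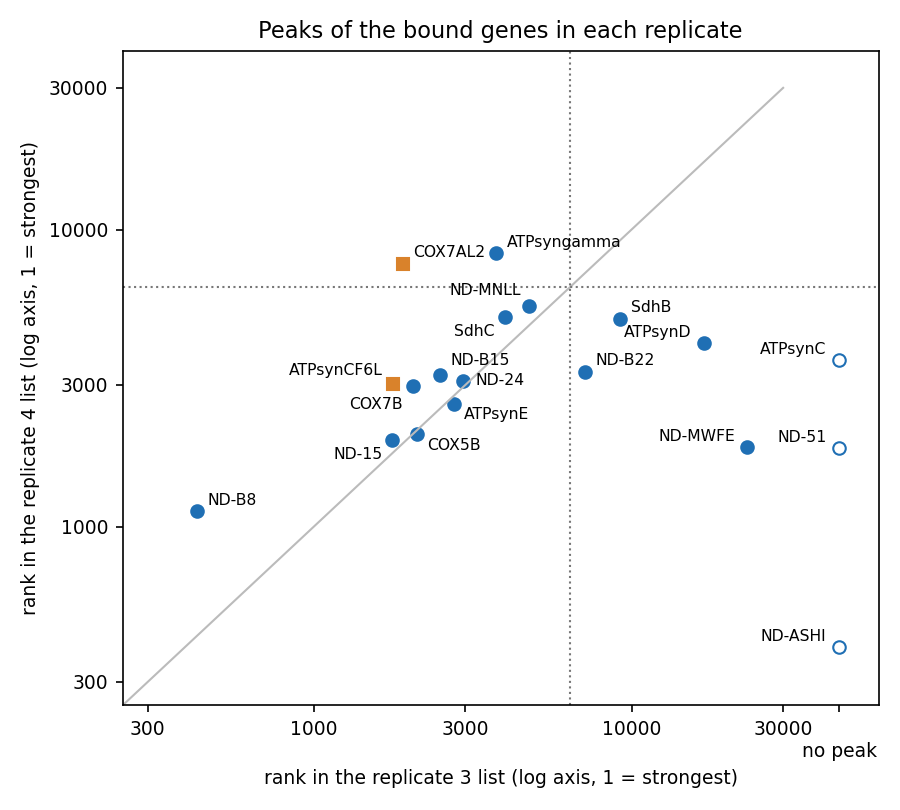
Rank by signal (log axes, 1 is the strongest) of the peak that overlaps each bound gene's best optimal peak, in replicate 3 and in replicate 4; circles are subunits, squares L paralogues, open circles genes without an overlapping peak in replicate 3, dotted lines rank 6407, and the grey line equal ranks. ND-ASHI, ND-51, ATPsynC, ND-MWFE and ATPsynD lie far to the right of the line, and COX7AL2 and ATPsyngamma above it.

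The 68 unbound genes included 19 with a weaker peak. A peak of the pooled list below the threshold had its summit within 1000 bp of a TSS in 16 of the 46 unbound subunits and in 3 of the 22 unbound paralogues. The share over both, 27.9%, was close to the 27.2% of all unbound genes. The strongest such peaks were those of ATPsynCF6 and ND-SGDH, followed by COX7C (rank 7629), ND-B14.5B (7694), ND-B14.5AL (8133), UQCR-C1 and UQCR-14. None of these peaks passed the authors' threshold.

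The L paralogues were unbound in 22 of 24 cases, where 10375 of all 13945 protein-coding genes were unbound. No pooled peak was within reach of 19 of these 22, and of 7552 of all 10375 unbound genes. UQCR-6.4L, among the 22, had its optimal summit at 1001 bp. Its summits among the leading peaks of replicates 3 and 4 lay at 964 and 988 bp, inside the window. The unbound ones were ND-20L, ND-24L, ND-49L, ND-51L1, ND-51L2 and ND-B14.5AL of complex I, SdhAL, SdhBL and SdhCL of complex II, UQCR-6.4L, UQCR-11L and UQCR-14L of complex III, COX4L, COX5BL, COX6AL, COX6AL2, COX6CL, COX7AL and COX7CL of complex IV, and ATPsynbetaL, ATPsynepsilonL and ATPsynGL of complex V. COX5B and COX5BL lie next to each other on 2L, at 6557800 to 6559308 and 6559431 to 6560133, both on the plus strand. The optimal summit at COX5B lay 243 bp upstream of its TSS and 1874 bp from that of COX5BL, which had only a pooled peak of rank 17407. That summit was nearer still to the TSS of IFT52, at 55 bp. The sequences before the 2 TSSs, shown because the genes are like-named neighbours with unlike calls, held none of the motifs searched. They are chr2L:6557700-6557799 for COX5B and chr2L:6559331-6559425 for COX5BL, both on the plus strand. The COX5B window does not reach its summit, where GCAACA and ACACTG matched in the sequence printed above. Like windows before the TSSs of ND-24 (41 bp long) and SdhC also held none of the motifs. Those of their unbound paralogues ND-24L and SdhCL held GAGAGA.
COX5B: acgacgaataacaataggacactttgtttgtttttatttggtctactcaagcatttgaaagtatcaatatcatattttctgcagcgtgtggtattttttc
COX5BL: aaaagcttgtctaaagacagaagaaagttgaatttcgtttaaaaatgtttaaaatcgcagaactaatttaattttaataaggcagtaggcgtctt

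Motif matches were sought on both strands within 100 bp of each of the 19 best summits, and over the 3430 optimal summits within 1000 bp of any protein-coding TSS for comparison. CAGGTG, the E-box that zinc fingers of this family bind, was found at 2 of 19 summits, those of ND-B15 and COX7AL2 (10.5%), and at 8.08% of promoter summits. Within 50 bp the shares were 10.5% and 4.84%. COX7AL2 also held the longer CAACAGGTG, which contains CAGGTG, 12 bp from its summit; 1.69% of promoter summits held it. CAGCTG, another E-box, was at 5 of 19 (26.3%) and 16.0%, GCAACA, which overlaps CAACAGGTG in CAACA, at 6 of 19 (31.6%) and 30.5%, and ACACTG at 4 of 19 (21.1%) and 15.5%. TATCGATA, the DNA replication-related element of fly core promoters, was at the summits of ND-15 and ND-MNLL and at 4.4% of promoter summits, and GAGAGA at that of ATPsynE and at 14.1%. The NRG element, a motif described for nuclear genes of oxidative phosphorylation in insects, had no match in these windows and 2 over the promoter summits. With 19 summits, no difference in these shares can be read.

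Some motifs were more frequent in promoters of the subunits than in those of the paralogues, which is given as counts with no test. From 250 bp before to 50 bp after the canonical TSS, ACACTG was present in 26 of 63 subunit promoters (41.3%), 4 of 24 paralogue promoters (16.7%) and 18.8% of all promoters. It was in 7 of the 17 bound (41.2%) and 19 of the 46 unbound subunits (41.3%), so its presence did not separate them. CAGCTG was in 33.3% of subunit promoters, 8.33% of paralogue promoters and 17.9% of all, and GAGAGA in 3.17%, 16.7% and 12.7%. For CAGGTG the shares were 6.35%, 4.17% and 9.37%, for GCAACA 27.0%, 12.5% and 21.2%, and for TATCGATA 12.7%, 0 of 24 and 8.95%.

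Genes of neighbouring functions gave bound shares on both sides of that of the subunits. Of 9 further genes of the chain whose symbols the rule does not match, 3 were bound. They were both genes of the electron carrier cytochrome c, Cyt-c-d (signal 1749) and Cyt-c-p (678), and blw, for the alpha subunit of ATP synthase (341). Cyt-c1, RFeSP and cype were among the unbound ones; RFeSP and Cyt-c1 are subunits of complex III, and neither had an optimal summit in the window. Of 16 assembly factors 3 were bound (15 further symbols matched no gene and were left out), led by CIA30 (1368) and Cox17 (337), while Cchl, Ccdc56 and Coa7 were unbound. Of 18 genes listed for the tricarboxylic acid cycle, with related isoforms, 7 were bound (38.9%), led by Idh (1473) and Idh3g (1261). Fum2, Fum3 and Fum4 were unbound. Mitochondrial ribosomal protein genes had 29 of 73 bound (39.7%) and cytosolic ones 77 of 93 (82.8%), in the call for which the share of all genes was 25.6%. The highest signals were those of mRpS23 (3125) and mRpS10 (3023) in the mitochondrial list, with mRpL1, mRpL10 and mRpL12 unbound, and of RpL34b (2940) and RpL7-like (1874) in the cytosolic list, with RpL10Aa, RpL15 and RpL21 unbound. Subunits of oxidative phosphorylation, at 27.0%, were thus nearer to the background than to either family, a difference that was not tested.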

How the data were processed

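Peak lists in narrowPeak format on assembly dm6 were analysed. The authors deposited 30000 peaks each for replicate 3, replicate 4 and their pool, called against controls, and an optimal list of reproducible peaks. The aligner, the peak caller, the reproducibility threshold and the read depth were not given in the sources used. The signal of a peak is the authors' deposited enrichment value on a scale set within its list. The deposited −log10 q-value was not used. The summit is the deposited start plus offset, counted from 1.

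Genes came from Ensembl release 115 and sequence from the Release 6 RefSeq genome; 0 peaks ran past a chromosome end. Replicate peaks were matched by 1 bp of overlap. Shares have Wilson 95% intervals, which cover counting error only. Expected shares are means over other genes grouped by 10 length classes and 3 classes of TSS number. The neighbour split, the division of complex I into core and accessory genes, and the summit sequence of COX7AL2 were chosen after seeing the data. The list members, related lists (16 assembly factors matched a gene and 15 did not) and naming rule were chosen with earlier results of these data known. All bound genes, all paralogues and all unbound subunits are named, with the 2 bound genes of highest signal and 3 unbound genes per related list. The naming of blw was added after its values were seen. Tables were handled with pandas 2.3.3 under Python 3.11.15, intervals came from scipy 1.17.1, arrays from numpy 2.4.6, and plots from matplotlib 3.10.9.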

Additional observations from a re-analysis of the deposited data

How the results depend on the processing

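Of 96 recomputed values 25 moved, counts by over 1.5 times and shares beyond their Wilson interval, which is wide for 19 summits. Leaving out a replicate meant using the 6407 leading peaks of the other replicate alone, with no reproducibility threshold. Bound genes numbered 24 without replicate 3, where 27.4% of all genes were bound, and 16 without replicate 4 (24.7% of all genes). Bound genes numbered 16 with a window of 500 bp (22.0% of all genes) and 27 with 2000 bp (31.1%). They fell to 12 with the 3203 optimal peaks of highest signal (16.2% of all genes) and to 10 where a peak had to span a TSS (14.8%) or counted only for the nearest TSS (19.7%). Subunits without the paralogues fell to 10, 10 and 8 in these 3 settings. Complex I fell to 5 with the nearest TSS only. Complex II gave 1 to 2 with a replicate left out and 0 with the highest signals. Complex III gave 2 with either replicate left out, 2 at 2000 bp and 1 with summits counted from 0, a setting chosen after seeing the data that brings UQCR-6.4L to 1000 bp. Complex IV gave 6 at 2000 bp and 1 with spanning peaks or the nearest TSS. Complex V gave 3 to 6 with a replicate left out, 2 with the highest signals, at 500 bp and with the nearest TSS, and 1 with spanning peaks. Bound paralogues were 1 at 500 bp, 5 at 2000 bp and 0 with spanning peaks. Counting ND-MNLL as a paralogue gave 3 of 25. The share expected from genes of like length ran from 17.3% to 20.1%. CAGCTG was at 10.5% of summits within 50 bp and 47.4% within 200 bp, beside 8.83% and 27.6% of all promoter summits. TATCGATA was at 5.26% and 21.1%, beside 2.33% and 7.08% of all promoter summits. No paired analysis was possible because the 2 replicates form 1 group. Read depth is unknown, so a missing peak may be one not detected.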

Other observations

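Some of these genes held optimal summits in the gene body, away from their TSSs. There were 14 summits within the spans of 7 of the 87 genes, and 9 of them, in 4 genes, lay more than 1000 bp from any TSS of the gene. The share of all protein-coding genes with such summits was not computed, so these counts have no background beside them. The span of ND-15, 41305 bp long, contained 5 of the 9, of signal 458, 382, 293, 293 and 198. They lay 8341 to 17335 bp from its nearest TSS, in the stretch between its upstream and canonical starts. Whether these summits lie in other genes within that span was not examined. ND-39, an unbound accessory subunit gene of complex I, held summits of 425 and 241 at 1488 and 1569 bp. COX7AL2 held one of 366 at 1155 bp and UQCR-Q the one at 1008 bp.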
